A study of Mus musculus with 31 samples.

Results

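The subject is the miRNA repertoire of wild-type (WT) mouse embryonic stem cells (mESCs), and the balance between the arms of each precursor. Members were all miRNAs in the deposited small-RNA-seq table, read in the 4 columns named for WT, with no further selection on their values. The table lists only miRNAs above 0 in each of its libraries, of WT and of other genotypes. It held 507 miRNAs. Of these, 308 miRNAs belonged to 154 precursors for which both the 5p and the 3p arm were listed. The series held 31 samples, of which 16 were small-RNA-seq libraries and 4 were WT small-RNA-seq libraries.

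The cells are of the ES-E14TG2a line, a feeder-independent mESC line kept on gelatin. The study examined the RNA-binding protein Trim71 by sequencing of its bound RNA, of total RNA, and of small RNA, and its text states that cells for these profiles were kept in 2i and lif medium, which holds back differentiation. The labels and methods give either a serum or a 2i medium, both with lif, for all its mESCs, and do not assign one to these libraries. Its text uses the name WT for mESCs with a FLAG tag on the endogenous Trim71, and the labels of the 4 libraries give wild-type without stating a tag. They also give the libraries as biological replicates. The columns carry the letters A, B, C, and D, which the labels do not tie to replicate numbers, so the libraries are named by letter and their order has no meaning.

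A miRNA is cut from a hairpin precursor by Drosha and Dicer, which leaves a short duplex of a strand from the 5′ side (5p) and a strand from the 3′ side (3p). One strand is loaded into an Argonaute protein and the other is usually degraded, and the seed of the loaded strand, bases 2 to 8, is the main determinant of which mRNAs it binds. mESCs are known for the miR-290-295 cluster, many of whose members share a seed with the miR-302-367 cluster, and for low levels of mature let-7, whose processing is blocked by Lin28.

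The sequences of the most abundant miRNAs are given first, since seed families and arms are read from them. They are from RefSeq (GRCm38.p6), which matched 442 of the 507 names and 97.0% of the total of the table, and the capitals mark the seed. The 65 names without a sequence have no seed here, so a family may lack measured members. As counted, the largest seed family had 5 members, 3 from the miR-290-295 cluster and 2 from the miR-302-367 cluster. miR-302a-3p, also measured, was not among those counted.
miR-295-3p: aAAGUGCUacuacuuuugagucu
miR-294-3p: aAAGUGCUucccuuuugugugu
miR-291a-3p: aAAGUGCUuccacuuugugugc
miR-302d-3p: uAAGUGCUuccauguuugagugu
miR-302b-3p: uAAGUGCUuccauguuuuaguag

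The same hairpins gave abundant strands of other seeds, shown here because both arms of miR-291a and of miR-293 were among the 13 most abundant miRNAs. miR-291b-5p shares the seed of miR-291a-5p, and miR-293-3p had a seed of its own among names with a sequence.
miR-291a-5p: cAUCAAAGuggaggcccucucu
miR-291b-5p: gAUCAAAGuggaggcccucucc
miR-293-3p: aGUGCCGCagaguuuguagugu
miR-293-5p: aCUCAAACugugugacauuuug

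Next are the miR-25 family and the miR-17 family, which are spread over several clusters and are each led by a member of the miR-106b-25 cluster.
miR-25-3p: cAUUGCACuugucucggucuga
miR-92a-3p: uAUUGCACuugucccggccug
miR-92b-3p: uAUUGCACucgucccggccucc
miR-93-5p: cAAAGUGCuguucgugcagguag
miR-17-5p: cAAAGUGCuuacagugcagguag
miR-20b-5p: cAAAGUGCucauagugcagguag
miR-106b-5p: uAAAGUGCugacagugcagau

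Last are abundant miRNAs that were the only carriers of their seed among names with a sequence. let-7g-5p, the member of the let-7 family with the highest listed value, is added.
miR-182-5p: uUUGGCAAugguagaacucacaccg
miR-183-5p: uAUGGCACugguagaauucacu
miR-127-3p: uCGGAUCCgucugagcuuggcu
miR-541-5p: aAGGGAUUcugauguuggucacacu
let-7g-5p: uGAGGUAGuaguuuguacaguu

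Values are deposited TPM rescaled so that each library sums to 1000000 over the table, and shares are shares of that total. TPM is a read count divided by length. Among miRNAs with 1 genome match, the 100 lowest values of each library, multiplied by mature length minus 1, were all whole multiples of 1 step, within 0.02 reads. Low values of miRNAs with several matches were whole in 41.2% to 50% of cases, and in 100% once also multiplied by the number of matches. On that scale the libraries held 6893848 inferred reads in A, 8466942 in B, 7048382 in C, and 5517727 in D. Library D stood apart: among the 217 miRNAs that averaged 100 TPM or more, it lay outside the range of the other 3 libraries for 176, against 145 for B, 75 for C, and 38 for A, or 108.5 on average over the 4 libraries. Pearson’s r of log2(TPM + 1) over these 217 miRNAs, a description across miRNAs that share a library, was 0.990 between A and B, 0.991 between A and C, and 0.928 between B and D. The median coefficient of variation (CV) between libraries was 20.9%, and 11.4% without library D. Values are therefore given library by library.

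The labelled cell type was checked against its markers. The miR-290-295 and miR-302-367 clusters were both measured, and they held the first and the ninth largest share of the total among genomic positions. Of the miRNAs listed here as markers of other cell types, 19 had an arm in the table, and their arms summed to between 6173 and 7968 TPM per library. Most of that sum came from the list for fibroblasts and mesenchyme, with 6 of 9 listed and a share of 0.503 ± 0.0543% (SD, n = 4). This list was led by miR-10b-5p, with a mean of 3987 TPM. It also held miR-10a, miR-143, miR-145a, miR-196a, and miR-196b, while miR-199a, miR-199b, and miR-214 were not listed. The muscle markers miR-1a and miR-133a, the liver marker miR-122, the neural markers miR-124 and miR-9, the blood marker miR-223, and the pancreatic marker miR-375 were not listed. From the same lists, miR-499 (muscle, 1 of 6 listed) and miR-142a, miR-150, and miR-155 (blood, 3 of 6) were in the table. So were miR-128, miR-132, miR-137, miR-138, and miR-218 (neural, 5 of 8). The table keeps only miRNAs above 0 in each of its libraries, so a marker that is not listed is not shown to be absent from the cells. The epithelial list held 0.0999%, the blood list 0.0644%, the muscle list 0.0122%, the neural list 0.0119%, and the endothelial list 0.000351% of the total. The part of such cells in the results was not tested.

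A few miRNAs held most of the total. The 5 most abundant miRNAs held 50.7% of the total, and 5 miRNAs were enough to pass 50% in each of the 4 libraries. The 10 most abundant held 65.2 ± 1.54% (SD, n = 4), the 30 most abundant held 82.3 ± 1.11%, and 53 were needed for 90%. The 307 miRNAs below rank 200 together held 0.919 ± 0.0809%.

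miR-295-3p was the most abundant, with 244280 TPM in library A, 238864 in B, 234702 in C, and 181258 in D. miR-294-3p followed with 87257, 82079, 97921, and 154719 TPM in the same order. Library D was thus the lowest for miR-295-3p and the highest for miR-294-3p, while the 2 together varied little, with 33.2% of the total in A, 32.1% in B, 33.3% in C, and 33.6% in D. The ratio of miR-295-3p to miR-294-3p was 2.80, 2.91, and 2.40 in A, B, and C, and 1.17 in D.

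The next miRNAs came from other loci. miR-182-5p had 72694, 79820, 73358, and 60867 TPM in A to D, and miR-183-5p, from the same transcript, had 56582, 62516, 51090, and 65496 TPM. Their ranges overlapped, and library D alone put miR-183-5p first. miR-293-3p, from the miR-290-295 cluster, had 44390, 47388, 49836, and 41762 TPM. miR-127-3p, from the imprinted Dlk1-Dio3 region, had 36454, 33443, 35957, and 56203 TPM, so that library D was well above the other 3. Ranks 7 to 10 were taken by miR-291a-5p (37022 ± 4967 TPM, SD, n = 4), miR-25-3p (26905 ± 1145 TPM), miR-541-5p (22407 ± 3096 TPM), and miR-293-5p (18626 ± 2079 TPM).

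The order of neighbours was firm at few places. Among 30 neighbour pairs down to rank 31, the ranges over the 4 libraries did not overlap for 4 pairs. These were miR-295-3p above miR-294-3p, miR-294-3p above miR-182-5p, miR-183-5p above miR-293-3p, and miR-291a-5p above miR-25-3p. In 7 of the 30 pairs the order was the same in all 4 libraries, and in the other 23 pairs at least 1 library reversed it.

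**Figure D1:**
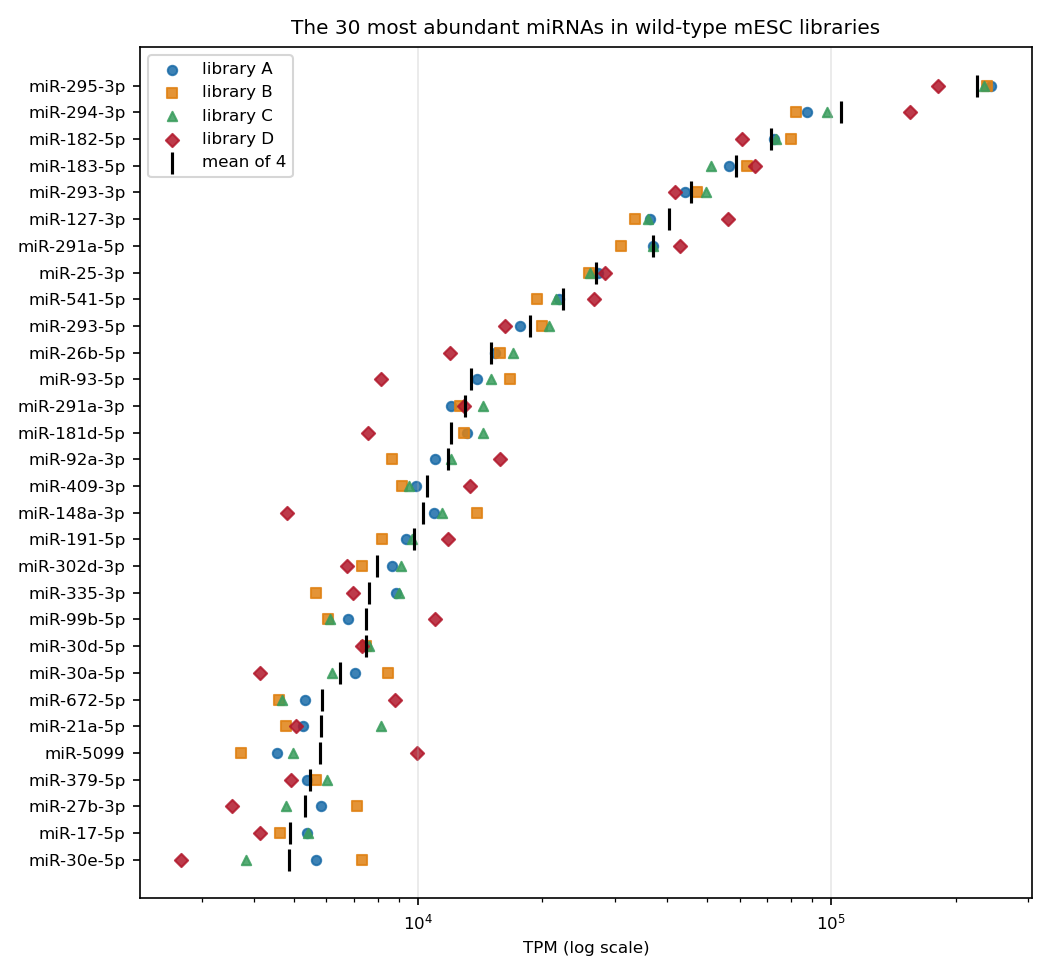
TPM on a log axis of the 30 most abundant miRNAs in each WT library (colored symbols) and their mean (black bar), from the highest mean at the top. miR-295-3p lies between 181258 and 244280 TPM, and from rank 8 the ranges of all neighbours overlap.

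Ranks 11 to 30 held miRNAs from many loci, with means from 15026 TPM (miR-26b-5p) to 4867 TPM (miR-30e-5p). They included miR-93-5p, miR-291a-3p, miR-181d-5p, miR-92a-3p, miR-409-3p, miR-148a-3p, miR-191-5p, miR-302d-3p, miR-335-3p, and miR-99b-5p. The remaining ones were miR-30d-5p, miR-30a-5p, miR-672-5p, miR-21a-5p, miR-5099, miR-379-5p, miR-27b-3p, and miR-17-5p, beside the first and the last. miR-30d-5p was the steadiest of the 217 more abundant miRNAs, with 7490, 7485, 7604, and 7309 TPM and a CV of 1.63%.

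Grouping by genomic position, with precursors on the same strand within 10 kb joined, gave 199 positions. The 34 positions with at least 2 measured precursors held 86.5% of the total, and the 5 largest positions held 75.1%. miRNAs without a position held 2.37%.

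The miR-290-295 cluster lies on chromosome 7 at chr7:3218932-3220841 of GRCm38, on the plus strand, in sequence that the GENCODE annotation places between genes. It held 44.6% of the total in A, 43.4% in B, 45.8% in C, and 45.4% in D. The share of the cluster was steadier than that of its main members, with an SD of 1.02 percentage points against 2.93 for miR-295-3p and 3.35 for miR-294-3p alone. Within the cluster, the miR-295 precursor held 55.3%, 55.4%, 51.7%, and 40.4% in A to D, and the miR-294 precursor held 19.8%, 19.1%, 21.6%, and 34.5%. The miR-293 precursor held 14.4 ± 1.31% (SD, n = 4), the miR-291a precursor 11.2 ± 0.948%, and the miR-291b precursor 0.0444 ± 0.00794%. miR-290a and miR-292a were not listed, so the share of the cluster does not include them. Of 69 RefSeq mature miRNAs with an annotated mature miRNA on the other strand, 4.35% were in the table, against 26.3% of all 1679. Whether the absence of miR-290a and miR-292a comes from their level or from the counting was not tested. miR-292b-3p, with 28.1 ± 4.84 TPM, lies within the span of the cluster but on the minus strand in RefSeq, at chr7:3219198-3219259, and is not in the share, which is over 5 precursors.

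The miR-183-96-182 cluster, on the minus strand of chromosome 6 at chr6:30165918-30169737, held 13.0%, 14.3%, 12.5%, and 12.7% in A to D. Its members are made from a single transcript, and their levels were far apart. miR-96-5p had 219, 292, 164, and 134 TPM, and miR-182-5p was 377 ± 88.9 times as abundant (SD, n = 4).

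The imprinted Dlk1-Dio3 region, whose miRNAs are made from the maternal chromosome 12 in long non-coding transcripts, was next. The 80 measured miRNAs of the list for this region together held 12.4%, 11.8%, 12.5%, and 15.2% of the total in A to D, with library D the highest. They fell mainly into 2 groups by position. A group of 34 precursors around Mirg, at chr12:109709060-109747960, held 7.67 ± 0.455% (SD, n = 4), and 29.2% of that was miR-541-5p. A group of 9 precursors by Meg3, at chr12:109563692-109594599, held 5.07 ± 1.06%, and 79.9% of that was miR-127-3p.

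The miR-17 type clusters, which promote the cell cycle, followed. The miR-106b-25 cluster, within Mcm7, a gene for a replication helicase subunit, held 4.51%, 4.67%, 4.50%, and 4.13%. miR-25-3p was 24.9 ± 3.48 times as abundant as miR-106b-5p and 2.19 ± 0.886 times as abundant as miR-93-5p (SD, n = 4), with the latter ratio at 3.49 in D and between 1.56 and 1.97 in the other libraries. The miR-17-92 cluster, in Mir17hg, held 2.20 ± 0.271%, and 53.8% of that was miR-92a-3p, a miRNA with 2 loci. The share was 3.19% on the scale of inferred reads, in which that miRNA is multiplied by its loci, and 1.03% without miRNAs of several loci. The miR-106a-363 cluster, on chromosome X, held 0.929%, 0.930%, 0.896%, and 0.586%, with library D below the others. Its share leaves out miR-92a-3p, which was counted whole in the miR-17-92 cluster, although the miR-92a-2 precursor lies in the miR-106a-363 cluster.

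The miR-302-367 cluster, which is transcribed under pluripotency factors, held 1.45%, 1.19%, 1.62%, and 1.31% in A to D, or 1.39 ± 0.188% (SD, n = 4). miR-302d-3p made up 57.1% of it. The other positions among the 10 largest were led by miR-181d-5p (1.55 ± 0.400%), miR-26b-5p (1.51 ± 0.216%), and miR-191-5p (1.12 ± 0.148%).

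The other lists named for families held at most 2.06% each. miR-30 members held 2.06 ± 0.389%, miR-148-152 1.51 ± 0.537%, miR-130-301 0.772 ± 0.208%, miR-23 and miR-27 0.675 ± 0.151%, and miR-21 0.582 ± 0.157% (SD, n = 4). The miR-26 list held 1.52 ± 0.213%, of which 98.9% was miR-26b-5p, already named among the largest positions. The list of miR-99 and miR-125 held 0.888 ± 0.237%. miR-200 and miR-141, known for epithelial cells, held 0.402 ± 0.0788%, and the families in the intron of Sfmbt2 held 0.419 ± 0.0768%. miR-34, a p53 target, held 0.216 ± 0.0567%. miR-221-222 held 0.198 ± 0.0297%, miR-15-16 held 0.136 ± 0.0168%, and miR-322-450 held 0.115 ± 0.0116%. The miR-15-16, miR-26, and miR-30 lists include strands made at several loci, whose low values cannot be told apart from an effect of counting. miR-26a-5p was at 3.33 TPM beside miR-26a-2-3p at 135, and miR-30c-5p at 0.522 TPM beside miR-30c-1-3p at 148. miR-16-5p, at 77.7 TPM, was below miR-16-2-3p at 165 and above miR-16-1-3p at 58.3. The miR-320 and miR-484 list, whose precursors bypass Drosha, held 0.160 ± 0.0462% over 2 measured miRNAs, and 4 mirtron strands held 0.00643 ± 0.00451%, or 0.00420% without library D.

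**Figure D2:**
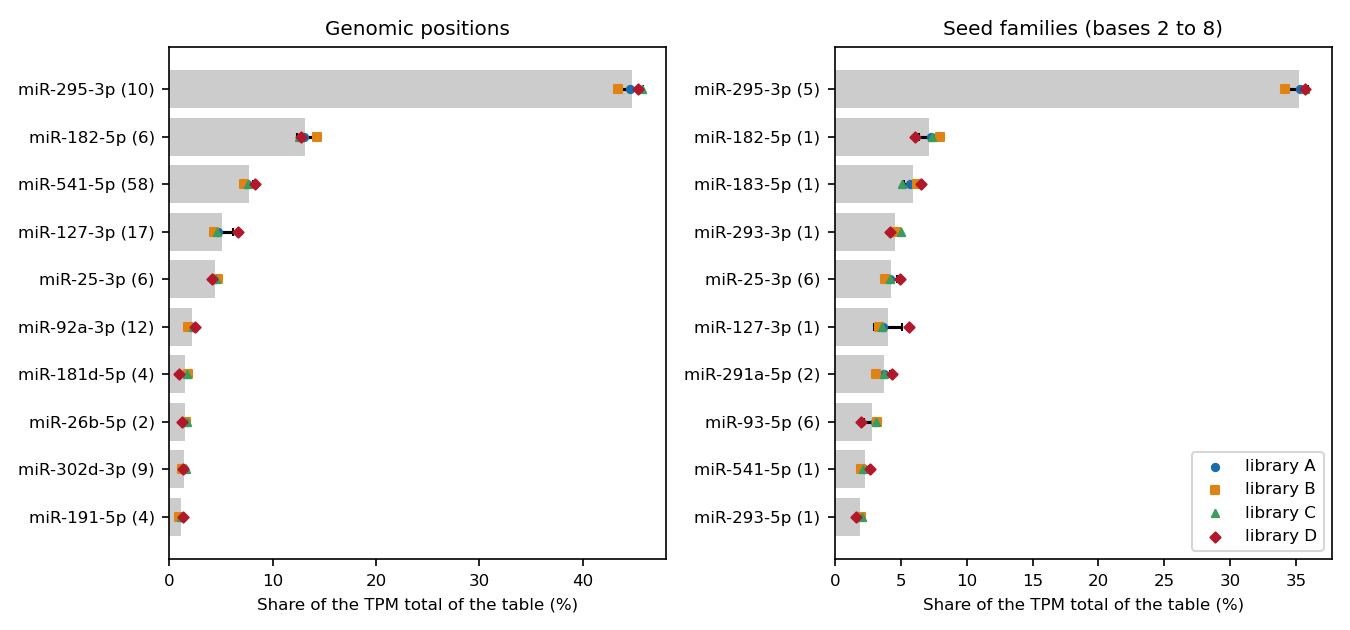
Share of the TPM total of the table (percent) held by the 10 largest genomic positions (left) and the 10 largest seed families (right), each named by its most abundant miRNA with the number of measured miRNAs in brackets. Bars are means, error bars the SD over 4 libraries, and symbols the libraries, and the first bar of each panel is at 44.8% and 35.2%.

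Grouping by seed instead of position, over the 442 names with a sequence, gave 364 seeds. Of these, 49 were shared by at least 2 miRNAs. Shared seeds held 57.6% of the total, and the 10 largest families held 71.8%. The seed AAGUGCU, printed above, held 35.3%, 34.2%, 35.7%, and 35.7% in A to D. Of this seed as counted, the miR-290-295 cluster gave 97.5 ± 0.273%, and miR-302d-3p and miR-302b-3p gave 2.52 ± 0.273% (SD, n = 4). miR-302a-3p was not counted in it. The seed made up 76.7 ± 0.560% of the total of the miR-290-295 cluster.

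miR-182-5p and miR-183-5p, with 7.17 ± 0.790% and 5.89 ± 0.640%, and miR-293-3p, with 4.58 ± 0.352%, came next. Each was the only carrier of its seed among names with a sequence. The miR-25 family with the seed AUUGCAC held 4.26 ± 0.480% from 6 miRNAs at 6 positions, of which miR-25-3p gave 63.2%. The miR-17 family with the seed AAAGUGC held 3.02%, 3.21%, 3.15%, and 1.94% in A to D. Its 6 members came from 3 positions, miR-93-5p gave 47.4% of it, and library D was the lowest.

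As listed, the let-7 family was scarce and uneven between libraries. let-7 and miR-98 miRNAs held 0.975% of the total in A, 1.11% in B, 0.449% in C, and 0.348% in D. let-7g-5p had 4911, 6082, 2240, and 1387 TPM. let-7i-5p had 1354, 1560, 487, and 314 TPM, and let-7d-5p had 1007, 1166, 393, and 339 TPM. miR-98-5p had 367, 447, 113, and 103 TPM. let-7e-5p, from the cluster with miR-99b and miR-125a on chromosome 17, varied less, with 1968, 1647, 1182, and 1270 TPM. All 5 were higher in libraries A and B than in C and D, as were 8 of the 9 miRNAs with the let-7 seed GAGGUAG and 70 of the 217 more abundant miRNAs of any kind, and the labels do not set these pairs of libraries apart. let-7b-5p had 44.4 ± 25.8 TPM (SD, n = 4).

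let-7a-5p had 5.78 ± 1.90 TPM, let-7f-5p 20.2 ± 9.99 TPM, and let-7c-5p 1.08 ± 0.329 TPM, and each has 2 perfect matches in the genome. Reads that match several loci may be divided or left uncounted, so their low values cannot be told apart from an effect of counting. The same holds for miR-30c-5p, which was listed at 0.522 ± 0.319 TPM while the strands opposite it, miR-30c-1-3p and miR-30c-2-3p, were at 148 ± 21.1 and 64.9 ± 7.56 TPM. Of 1543 RefSeq mature miRNAs with 1 perfect genome match, 27.3% were in the table, against 15.4% of 136 with more. The most abundant 3p strand of the family was let-7e-3p, with 23.1 ± 11.5 TPM.

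The spread between libraries was large for a few miRNAs. Of the 217 miRNAs, 103 had a CV under 20% and 15 a CV over 50%, against 172 and 5 without library D. The most variable was miR-329-3p, with 93.4, 86.0, 86.8, and 460 TPM, followed by miR-210-3p, known for its induction in hypoxia, with 544, 1999, 387, and 467 TPM. miR-152-3p, the third, had 307, 930, 227, and 191 TPM. Library D was the high one for miR-329-3p and library B for the other 2. miR-499-5p, miR-98-5p, let-7i-5p, miR-423-5p, miR-151-3p, let-7g-5p, and miR-92b-3p completed the 10 most variable, with CVs from 69.6% to 58.6%.

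After miR-30d-5p, the steadiest were miR-30a-3p (CV of 2.28%), miR-17-3p (3.96%), miR-431-5p (4.07%), miR-25-3p (4.26%), and miR-363-5p (4.78%). miR-411-5p, miR-434-3p, miR-411-3p, and miR-323-3p, all from the Dlk1-Dio3 region, completed the 10, with CVs from 4.80% to 5.28%. The arms of a precursor could differ in this respect: miR-30a-3p varied by 2.28% and miR-30a-5p by 28.1%.

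**Figure D3:**
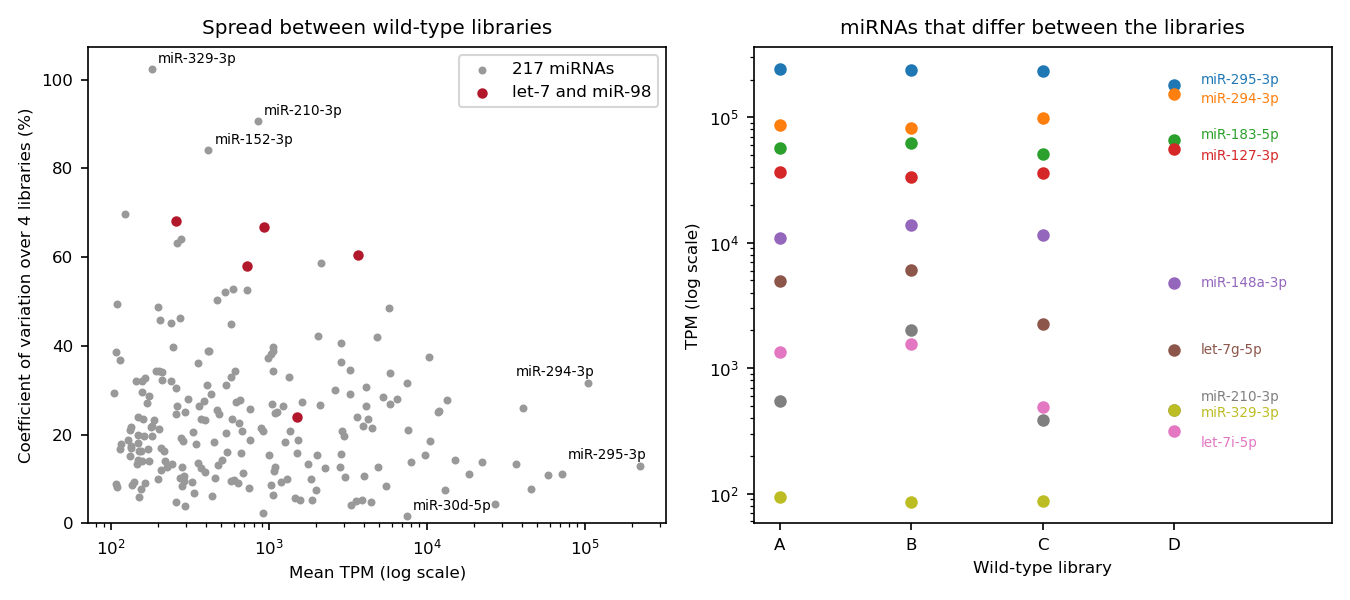
Left, the CV between 4 WT libraries (percent) against mean TPM (log axis) of 217 miRNAs, with let-7 and miR-98 in red. Right, TPM on a log axis of 9 miRNAs (colors as the names beside library D, where miR-329-3p covers miR-210-3p) in libraries A to D, whose order has no meaning, where library D brings miR-295-3p and miR-294-3p together, at 181258 and 154719 TPM.

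Arm choice was then read for the 154 precursors with both arms listed, which held 94.2% of the total. The measure was log2(5p TPM + 1) minus log2(3p TPM + 1) in each library, tested against 0 with limma and Benjamini-Hochberg adjustment over all 154. The 5p arm was higher for 76 precursors (49.4% of those tested) and the 3p arm for 67 (43.5%), at an adjusted p under 0.05. The remaining 11 did not pass, and all 143 that passed also did so at an unadjusted p under 0.05. A per-precursor exact sign-flip test could not go below p = 0.125 with 4 libraries, which is why the fit over all precursors was used.

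The preference was strong for many precursors. One arm was at least 4-fold above the other in each of the 4 libraries for 93 precursors (60.4%), with the 5p arm for 47 (30.5%) and the 3p arm for 46 (29.9%). It was at least 100-fold in each library for 22, of which 15 favored the 5p arm. The median absolute log2 ratio was 3.47, and the median SD between libraries was 0.42, or 0.21 without library D. The favored arms held 94.1% of the TPM of these precursors. The median absolute ratio was 5.70 for the 67 precursors with at least 1000 TPM over both arms, 3.03 for the 60 between 100 and 1000 TPM, and 1.79 for the 27 below, where the pseudocount of 1 limits the ratio.

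**Figure D4:**
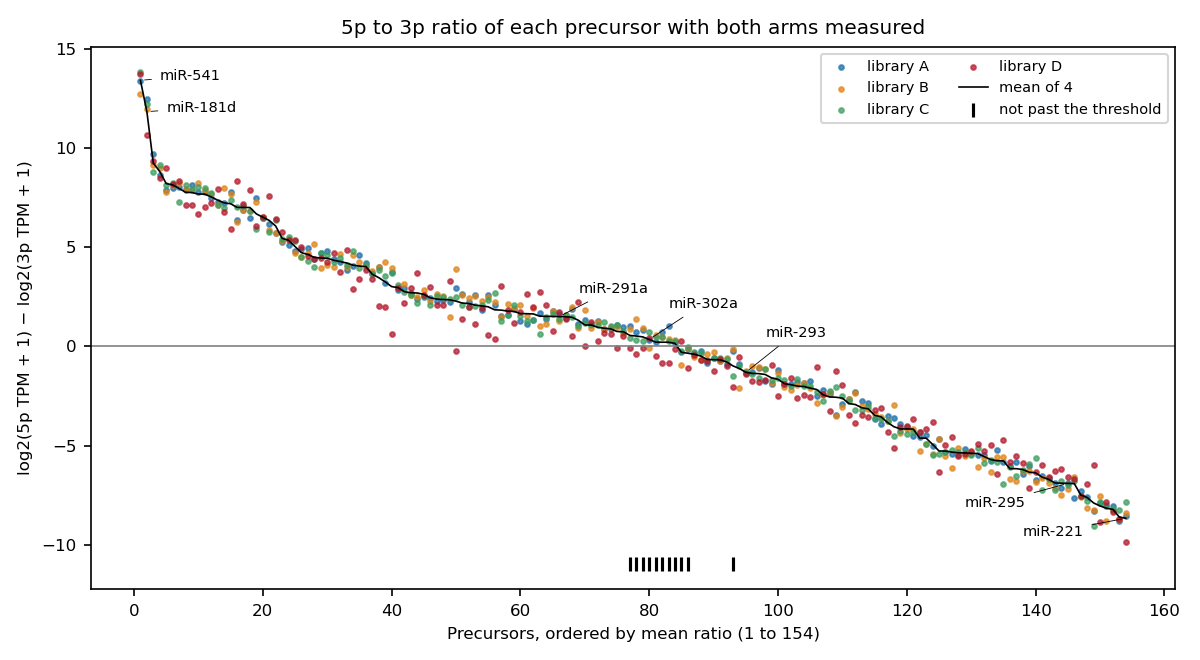
log2 ratio of 5p to 3p TPM (with a pseudocount of 1) of 154 precursors in order of their mean, with the value in each WT library as a colored point and the mean as a line. Ticks at the bottom mark the 11 precursors that did not pass the threshold, and the ratio runs from 13.43 for miR-541 to -8.67 for miR-221.

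By TPM, the 3p arms were ahead. miRNAs named 3p held 59.4%, 58.2%, 60.0%, and 60.8% of the total in A to D, and those named 5p held 39.9%, 41.2%, 39.3%, and 37.9%. The miR-290-295 cluster alone gave 38.9 ± 0.655% of the total from 3p arms and 5.86 ± 0.419% from 5p arms (SD, n = 4).

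Within the miR-290-295 cluster, the 5 precursors used their arms differently. miR-295 and miR-294 gave nearly only 3p strands. miR-295-5p had 2082, 1629, 1836, and 1899 TPM, which is 0.834 ± 0.152% of the precursor, for a log2 ratio of -6.91 ± 0.11 (SE, n = 4, limma adjusted p = 8.51e-09). miR-294-5p had 879, 690, 949, and 1590 TPM, or 0.952 ± 0.0823%, for a log2 ratio of -6.70 ± 0.09 (SE, limma adjusted p = 7.18e-09). In library D both arms of miR-294 were at their highest, and its log2 ratio there, -6.60, was close to the -6.89 to -6.63 of the other libraries.

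miR-293 gave both strands, with the 3p strand ahead. miR-293-5p had 17651, 19925, 20731, and 16197 TPM, or 28.8 ± 0.779% of the precursor (SD, n = 4). The log2 ratio of -1.30 ± 0.09 (SE, limma adjusted p = 6.06e-06) varied by an SD of 0.05 between libraries. miR-291a went the other way, with its 5p strand ahead. miR-291a-5p had 36959, 30950, 37064, and 43117 TPM and miR-291a-3p had 12009, 12647, 14334, and 12889 TPM, for a log2 ratio of 1.51 ± 0.12 (SE, limma adjusted p = 1.25e-05). The less abundant strand of miR-291a is thus the one with the AAGUGCU seed. miR-291b gave 87.4, 59.4, 80.8, and 138 TPM from 5p and 107, 114, 94.2, and 115 TPM from 3p, and did not pass (log2 ratio of -0.30 ± 0.22, SE, limma adjusted p = 0.224).

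Both strands of miR-291b and the scarce 5p strands of miR-295 and miR-294 are added here, to be set beside the strands printed above, with the seed in capitals.
miR-295-5p: aCUCAAAUguggggcacacuuc
miR-294-5p: aCUCAAAAuggaggcccuaucu
miR-291b-5p: gAUCAAAGuggaggcccucucc
miR-291b-3p: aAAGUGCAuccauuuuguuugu

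The miR-302-367 cluster was also mixed. miR-302d and miR-302b favored the 3p arm, with log2 ratios of -5.70 ± 0.23 and -6.34 ± 0.23 (SE, n = 4, limma adjusted p = 2.95e-07 and 2.07e-07). miR-302a gave nearly equal strands, with 2523, 1718, 3654, and 2661 TPM from 5p and 2028, 1807, 2166, and 1977 TPM from 3p. Its log2 ratio was 0.36 ± 0.18 (SE, limma adjusted p = 0.0929), and library B was the only one with the 3p arm ahead. miR-302c had 162, 123, 163, and 137 TPM from 5p and 76.3, 62.4, 77.0, and 146 TPM from 3p. Its log2 ratio of 0.76 ± 0.24 (SE, limma adjusted p = 0.0191) came with library D at -0.094 and the others between 0.97 and 1.08, and it did not pass when A, B, or C was left out.

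The miR-183-96-182 cluster was on the 5p side throughout. miR-183 and miR-182 gave 99.7 ± 0.0255% and 99.3 ± 0.216% of their TPM from the 5p arm (SD, n = 4), with log2 ratios of 8.15 ± 0.10 and 7.24 ± 0.20 (SE). miR-96 gave 76.0 ± 4.30%, with a log2 ratio of 1.66 ± 0.18 (SE, limma adjusted p = 9.07e-05). The scarce member of the cluster was thus also the one with the weakest preference of the 3.

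The miR-17 type clusters divided by the family of the precursor. miR-17, miR-20a, miR-20b, miR-106a, and miR-93 favored the 5p arm, with log2 ratios of 4.03, 7.78, 7.69, 7.20, and 7.69. miR-106b, of the same family, went the other way. miR-106b-5p had 1076, 1298, 1005, and 1005 TPM and miR-106b-3p had 2613, 2605, 2667, and 3344 TPM, for a log2 ratio of -1.36 ± 0.17 (SE, n = 4, limma adjusted p = 0.000202), so that the strand with the AAAGUGC seed was the lower in each library. miR-25, miR-363, and miR-19a favored the 3p arm, with log2 ratios of -6.90, -2.61, and -4.62.

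miR-18a and miR-18b favored the 5p arm less strongly, at 1.48 ± 0.26 and 2.29 ± 0.62 (SE, limma adjusted p = 0.00127 and 0.00991). miR-18b-5p had 317, 421, 238, and 120 TPM and miR-18b-3p had 40.1, 27.2, 40.8, and 141 TPM, so that library D alone put the 3p arm ahead. miR-106a-3p also had its highest value in D, with 7.50, 7.74, 10.6, and 22.2 TPM.

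**Figure D5:**
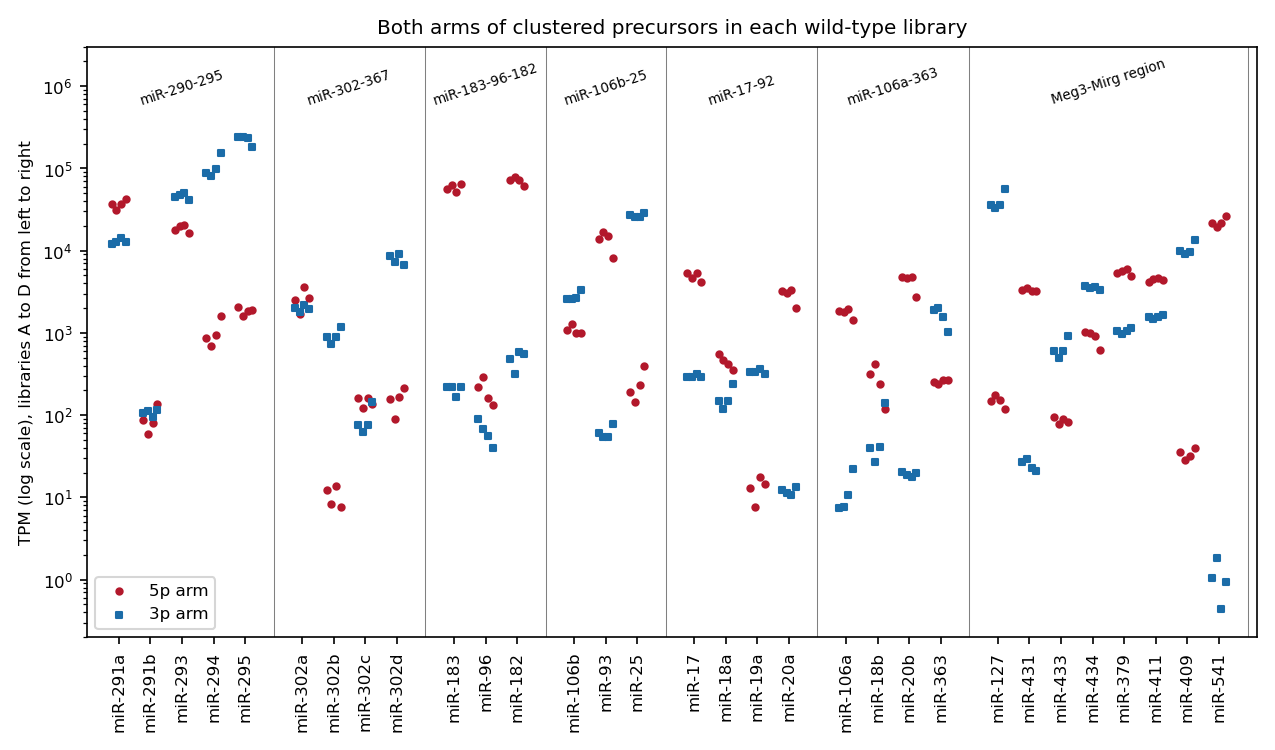
TPM on a log axis of the 5p arm (red circles) and the 3p arm (blue squares) of precursors in 7 clusters or regions, with libraries A to D from left to right at each precursor. Groups with precursors of either side include miR-290-295, where miR-291a is higher on the 5p side and miR-293, miR-294, and miR-295 on the 3p side, and the 3 members of miR-183-96-182 are all on the 5p side.

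In the Dlk1-Dio3 region, 34 precursors had both arms listed, and each passed the test. The 5p arm was higher for 12 and the 3p arm for 22, with a median log2 ratio of -1.39, while over all 154 precursors the 5p arm was higher in 49.4% and the 3p arm in 43.5%. The ratios ran from -8.22 to 13.43. miR-541 had 21941, 19370, 21592, and 26726 TPM from 5p and 1.06, 1.84, 0.444, and 0.944 TPM from 3p, for a log2 ratio of 13.43 ± 0.20 (SE, n = 4, limma adjusted p = 8.51e-09). Its 3p strand rested on 7, 15, 3, and 5 inferred reads, so the ratio is imprecise at the low end and depends on the pseudocount. miR-127 and miR-409 were at the other end, at -8.05 ± 0.22 and -8.22 ± 0.13 (SE), with 0.394 ± 0.133% and 0.325 ± 0.0279% from the 5p arm (SD).

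Several other families kept a single side. The 4 precursors of the miR-200 and miR-141 list favored the 3p arm, with log2 ratios from -8.61 (miR-200c) to -3.09 (miR-141). The 4 of miR-23 and miR-27 also did, from -6.92 (miR-23b) to -2.44 (miR-27a), as did the 3 of miR-148-152, from -5.56 to -5.27, and both of miR-130-301, at -6.89 and -2.17. The 3 precursors of let-7 and miR-98 with both arms under their own name favored the 5p arm, at 7.38 (let-7d), 6.69 (miR-98), and 6.08 (let-7e). The 3 of miR-30 also did, at 7.02 (miR-30d), 2.76 (miR-30a), and 0.89 (miR-30b). miR-322 and miR-503 were on the 5p side, at 0.97 and 4.06, and miR-450b of the same cluster on the 3p side, at -0.66.

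The largest 5p preferences after miR-541 were those of miR-181d (11.85 ± 0.30, SE, n = 4), miR-146b (9.25 ± 0.19), miR-26b (8.83 ± 0.15), and miR-10b (8.22 ± 0.23). miR-181d-3p had 1.27, 2.19, 2.02, and 3.57 TPM, or 8, 17, 13, and 18 inferred reads. miR-183, miR-672, miR-20a, miR-34a, and miR-93 completed the 10 largest, from 8.15 to 7.69. The largest 3p preferences were those of miR-221 (-8.67 ± 0.32, SE), miR-200c (-8.61 ± 0.17), miR-409, miR-341 (-8.16 ± 0.20), and miR-127. miR-543, miR-323, miR-92b, miR-23b, and miR-295 completed that end, from -7.90 to -6.91. Both arms of the precursors with the most extreme ratios are printed here, with the seed in capitals.
miR-541-5p: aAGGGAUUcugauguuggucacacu
miR-541-3p: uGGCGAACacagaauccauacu
miR-181d-5p: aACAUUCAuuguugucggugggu
miR-181d-3p: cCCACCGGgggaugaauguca
miR-221-5p: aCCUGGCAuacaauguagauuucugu
miR-221-3p: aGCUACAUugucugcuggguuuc

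Among the 20 precursors with the highest TPM, miR-293 and miR-291a had the smallest absolute log2 ratios. miR-148a, miR-335, miR-99b, and miR-30a had ratios of -5.56, -3.55, 4.21, and 2.76, and miR-191 and miR-25 were at 7.54 and -6.90.

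Some precursors gave balanced strands. Both arms were within 2-fold of each other in each of the 4 libraries for 12 precursors, and 11 precursors changed direction between libraries. Library D alone went the other way for 10 of these 11, and library B for miR-302a. Among precursors with at least 100 TPM, the ratios closest to 1 were those of miR-871 (0.22 ± 0.28, SE, n = 4, limma adjusted p = 0.475), miR-3068 (0.22 ± 0.21, limma adjusted p = 0.351), miR-291b, miR-140, and miR-302a. miR-140 had 1201, 1493, 1076, and 505 TPM from 5p and 1304, 1592, 1108, and 1093 TPM from 3p, so that its strands differed by a factor over 2 in library D only. miR-342, miR-135b, miR-154, miR-450b, and miR-28a completed the 10, at -0.39, 0.53, -0.66, -0.66, and 0.74, and all but miR-135b passed the test (limma adjusted p = 0.0391, 0.00542, 0.0155, and 0.00266 for those that did, and 0.115 for miR-135b).

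Without library D, the log2 ratios of miR-871, miR-3068, miR-291b, miR-302a, and miR-135b were 0.57, 0.44, -0.48, 0.33, and 0.82, and each passed (limma adjusted p from 8.54e-05 to 0.0434).

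The position of shared seeds was read next, with the favored arm as the one with the higher mean. Of the 5 miRNAs counted under the AAGUGCU seed, which leave out miR-302a-3p, 4 were the favored arm of their precursor and miR-291a-3p was not. Of the 6 with the AAAGUGC seed, 5 were and miR-106b-5p was not. The 3 of the miR-148-152 seed CAGUGCA, the 3 of the let-7 seed with both arms under their own name, and the pairs of the seeds of miR-130 and miR-27 were all on the favored arm. The seed AUGUAAC, of miR-379-3p and miR-411-3p, was on the other arm in both, and so was CUGCAGU, of miR-17-3p, miR-20b-3p, and miR-106a-3p. AAGUUCU (miR-148a-5p and miR-148b-5p), AUCUUAC (miR-200a-5p and miR-200b-5p), and GGUUGUC (miR-410-5p and miR-494-5p) were also on the other arm. With both arms listed, AUUGCAC had 3 of 4 miRNAs on the favored arm, and CUUUAAC 1 of 3. The seeds given here were picked, and a share over all shared seeds was not computed. The counts therefore do not show that these seeds differ from shared seeds in general.

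The favored and the other arm differed in their 5′ ends. These are counts over the 133 precursors with both sequences in RefSeq, which are not replicates, and they were not tested. The favored arm began with U in 66 and the other arm in 33. In the 80 precursors of at least 4-fold in each library, 43 favored arms and 17 other arms began with U, and in 33 only the favored arm did, against 7 in which only the other arm did. In the 53 precursors without such a preference the counts were 23 and 16. C was the first base of 22 favored and 33 other arms.

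The favored arm had fewer G and C in its first 4 bases in 64 of the 133 precursors, more in 30, and as many in 39, with means of 1.62 and 2.01. For the 40 with a 3p preference of at least 4-fold, it had fewer in 22 and more in 5, and for the 40 with such a 5p preference it had fewer in 20 and more in 11. The median length was 22 for both arms. By TPM, and not over precursors, A was the most common first base, with 48.9 ± 0.933% against 32.7 ± 1.06% for U (SD, n = 4), and miR-295-3p, miR-294-3p, and miR-293-3p all begin with A.

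The other 199 miRNAs had no partner under their own name. Of these, 168 carried an arm in their name (82 were 5p and 86 were 3p) and held 4.96% of the total, and 31 carried no arm and held 0.809%. The most abundant were miR-92a-3p (11850 ± 2976 TPM, SD, n = 4), miR-21a-5p (5817 ± 1566 TPM), and miR-5099 (5803 ± 2813 TPM). For 17 of the strands the opposite arm is made at several loci and is listed under a common name. miR-92a-3p stood beside miR-92a-1-5p with 1094 ± 272 TPM and miR-92a-2-5p with 86.8 ± 27.2 TPM, and miR-16-5p, at 77.7 ± 6.36 TPM, stood beside miR-16-2-3p at 165 ± 15.1 TPM. Such pairs were left out of the ratios, since the common strand cannot be divided between its loci.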

How the data were processed

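Total RNA from ES-E14TG2a mESCs was made into small-RNA libraries with an NEBNext kit. Per the labels and the study's methods, reads were trimmed with cutadapt, aligned to mm10 by HISAT2 2.1.0, and counted per miRNA by HTSeq, and the authors deposited TPM values for each library. The table lists miRNAs above 0 in each of its libraries, and 12 columns of other genotypes were not used. The 4 WT columns summed to between 998014 and 998755 TPM and were rescaled so that each library sums to 1000000. Inferred reads are TPM multiplied by mature length minus 1 and by the number of genome matches, divided by the smallest step.

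Shares and arm ratios used all miRNAs, and CVs the 217 that averaged 100 TPM or more. Arm ratios used a pseudocount of 1 TPM and limma 3.58.1 in R 4.3.3 (intercept only, eBayes with trend), with Benjamini-Hochberg adjustment over 154 precursors and a threshold of 0.05. On simulated data the fit called 3 of 77 precursors without a difference, 29 of 38 with an absolute log2 ratio of 1, and 37 of 39 with one of 2. Positions and sequences came from RefSeq and GRCm38, and other steps used Python 3.11.15. Alternatives were other pseudocounts, filters, gaps between precursors, and seeds, inferred reads, miRNAs with several loci left out, limma without trend, and each library left out.

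Named were the 30 most abundant miRNAs, the 10 highest and 10 lowest CVs, let-7 and miR-98, the 10 largest positions and seed families, and the family lists. Named precursors were the 20 most abundant, the 10 highest and 10 lowest ratios past the threshold with 1 direction in 4 of 4 libraries, the 10 closest to 1 with at least 100 TPM, and those of the listed clusters. Any other miRNA was picked with its values known. Members and lists were chosen with earlier results of these data known.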

Additional observations from a re-analysis of the deposited data

Results flagged for a closer look

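Among 155 values examined (60 miRNAs, 23 shares of lists, and 72 arm ratios), 16 had 1 library far from the other 3. The limit was for the gap to the nearest library, and chance passes it in about 1 of 20 groups not picked by their spread. That rate does not apply to the 16, since the miRNAs include those with the highest CVs, picked for their spread. Of that list, miR-329-3p, miR-210-3p, miR-152-3p, miR-423-5p, and miR-151-3p were among the 16. Library D was the distant one for 12 of the 16, B and C for 2 each, and A for 0. The 2 in C, miR-21a-5p and the miR-21 list, rest on the same value.

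In library D, miR-295-3p was low at 181258 TPM, against 234702 to 244280 TPM in the others. miR-127-3p was high there at 56203 TPM (33443 to 36454 TPM in the others), as were miR-99b-5p at 11018 TPM (6037 to 6768 TPM) and miR-672-5p at 8783 TPM (4617 to 5313 TPM). Less abundant miRNAs that were high in D were miR-329-3p at 460 TPM (86.0 to 93.4 TPM), miR-423-5p at 548 TPM (177 to 199 TPM), and miR-151-3p at 511 TPM (168 to 191 TPM). The miR-106a-363 list held 0.586% of the total in D and 0.896 to 0.930% in the others, and the mirtron list held 0.0131% against 0.00350 to 0.00491%.

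The arm ratio was also distant in D for 3 precursors. The log2 ratio of miR-871 was -0.83 in D and 0.49 to 0.71 in the others, that of miR-140 was -1.11 against -0.12 to -0.041, and that of miR-302c was -0.094 against 0.97 to 1.08.

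In library B, miR-210-3p was at 1999 TPM (387 to 544 TPM in the others) and miR-152-3p at 930 TPM (191 to 307 TPM). In library C, miR-21a-5p was at 8148 TPM (4794 to 5270 TPM), and the miR-21 list, whose only measured member it is, held 0.815% (0.479 to 0.527%).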

How the results depend on the processing

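The number of miRNAs that held 50% of the total was 5 under every alternative tried. The share of the 10 most abundant stayed between 64.5% and 66.2%, that of the miR-290-295 position between 44.0% and 45.5%, and that of the AAGUGCU seed between 34.9% and 35.8%. The precursors with the 5p or the 3p arm higher numbered 76 and 67 with pseudocounts of 0.1 and 10 TPM and with inferred reads, 77 and 68 without the trend, and between 75 and 82 and between 64 and 68 with 1 library left out. Only 44 precursors had both arms averaging 100 TPM or more, of which 21 and 19 passed. At least 4-fold in each library, with no test, were 47 and 46. Of 130 precursors whose arms have 1 genome match, an alternative chosen after seeing the data, 63 and 59 passed. The median CV was 11.4% without library D and up to 24.0% with another library left out. As an SD of log2(TPM + 1), the median spread was 0.31. Of 534 values for the 72 named ratios, 523 kept their call and 0 reversed. miR-342 and miR-302c lost it without A, B, or C (-0.41, -0.35, and -0.43, and 0.65, 0.68, and 0.65), and the 5 precursors given above gained it without D. The miR-17-92 share was 3.19% on inferred reads and 1.03% without miRNAs of several loci, against 2.20%. The causes of the other changes were not tested. The arm ratios paired the 5p and the 3p arm of a precursor within each library. Beyond that, no paired analysis was possible because only WT libraries were used and their columns carry letters without replicate numbers.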
